A study of Mus musculus with 13 samples.

Results

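The posterior mesoderm and WNT response genes described here are Sp5, Rspo3, Fgf17, Fgf8, Tbx6, Mixl1, Eomes, Evx1, Lef1 and Axin2, which were chosen by name as genes of the mesodermal programme that BLIMP1 opposes in primordial germ cells (PGC). All 10 were found among the 21887 protein-coding genes on mouse chromosomes 1 to 19, X and Y in RefSeq's GRCm38.p6 annotation, whose coordinates are those of mm10. Binding of BLIMP1, the zinc-finger transcriptional regulator encoded by Prdm1, was mapped in 6 cell types (12 libraries) by precipitating chromatin through its EGFP tag (rabbit polyclonal anti-GFP) and sequencing the DNA. All cells were C57BL/6 and carried an EGFP knock-in on both alleles, fused to the N-terminal end of BLIMP1, so the tag was common to all groups and none was untagged. PGC-like cells of culture day 2 (d2 PGCLC) or day 6 (d6 PGCLC) were made from embryonic stem cells that had been turned into epiblast-like cells for 36 hours and then floated in culture. The d2 cells received LIF and BMP4 and were sorted for KIT, the d6 cells received LIF, BMP4, BMP8a, SCF and EGF and were sorted for SSEA1 and integrin beta-3, with 2 replicates each. PGC from male and from female gonads at E12.5 (E, embryonic day), of embryos made by sperm injection, were sorted for SSEA1 and gave 1 library per sex, taken here as the 2 libraries of 1 cell type. The somatic cells were intestinal epithelium of E16.5 embryos sorted for GFP and EPCAM, photoreceptor precursors from retinas at postnatal day 4 sorted for GFP, and plasmablasts from B cells stimulated with IL-4 and LPS for 3 days and sorted for GFP and CD138, with 2 replicates each. The lists hold binding positions only, so the identity of the sorted cells was not checked against marker genes.

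WNT ligands stabilise beta-catenin, which joins DNA-bound TCF and LEF factors to activate target genes such as Axin2, Sp5 and Lef1. In the early embryo WNT, FGF and T-box factors act together in the primitive streak and tail bud to form posterior mesoderm. PGC arise beside these cells from the same epiblast, and in cells that become PGC BLIMP1 acts with other factors to keep the somatic mesodermal programme down.

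A summit is the position at which the peak caller placed the top of a peak. The 12 lists held between 7998 (intestinal epithelium replicate 1) and 76185 summits (d6 PGCLC replicate 1), and the other d6 PGCLC replicate listed 15411. Neighbouring summits of the pooled lists were joined into regions wherever the gap was 200 bp or less, and a cell type counted as bound at a region only if each of its 2 libraries put a summit there. The lists carry no peak height and the sources used here give no read depth, so longer lists offer more chances of a summit near any gene. The recorded number of cells per library also differed. Replicates 1 and 2 stood as 3 to 30 in d2 PGCLC and as 3 to 10 in d6 PGCLC. Both E12.5 libraries and replicate 1 of each PGCLC stage came from fewer cells than any somatic library. The replicate from fewer cells had the shorter list in d2 PGCLC and the longer one in d6 PGCLC. The effect of cell number was not tested. Positions are printed as listed and may be off by 1 bp.

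RefSeq promoter windows, the 250 bases before a start site and 50 after it, were matched for 6 of the 10 genes (9 entries); none was matched for Rspo3, Fgf17, Fgf8 and Mixl1. The 250 bases before the start are shown for Sp5, Axin2 and the lowest-coordinate start of Lef1, the 3 genes with a bound region starting within 250 bp downstream of such a start. Sequences run 5′ to 3′ on the plus strand of GRCm38.p6, from chr2:70474673-70474922, chr11:108920099-108920348 and chr3:131110047-131110296, and capitals mark the letters CTTTGAT, a word bound by LEF and TCF factors.
Sp5: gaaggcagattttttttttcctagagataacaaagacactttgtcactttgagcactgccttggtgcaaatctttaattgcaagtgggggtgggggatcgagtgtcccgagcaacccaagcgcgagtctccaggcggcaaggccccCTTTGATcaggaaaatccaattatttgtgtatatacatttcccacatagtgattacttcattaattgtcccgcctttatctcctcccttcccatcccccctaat
Axin2: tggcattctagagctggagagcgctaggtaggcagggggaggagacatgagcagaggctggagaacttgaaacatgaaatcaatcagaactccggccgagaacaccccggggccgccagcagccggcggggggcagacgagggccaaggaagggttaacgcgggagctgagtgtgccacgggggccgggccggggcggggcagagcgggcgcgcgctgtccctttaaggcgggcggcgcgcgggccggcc
Lef1: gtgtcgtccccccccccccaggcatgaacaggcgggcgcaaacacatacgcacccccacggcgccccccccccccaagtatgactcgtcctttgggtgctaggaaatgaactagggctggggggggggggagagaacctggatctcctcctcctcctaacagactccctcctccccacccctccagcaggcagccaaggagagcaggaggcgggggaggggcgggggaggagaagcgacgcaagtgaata
The LEF/TCF word began 104 bases before the Sp5 start and was in no other of the 9 windows, whereas 3.73% of all 32851 promoter windows held it on either strand. GTGAAAG, the core of the BLIMP1 motif, was searched in the same way and was in none of the 9 windows and in 4.24% of all windows. Several of the 9 windows belong to Lef1, and those of its starts at 131110297 and 131110323 overlap. So few windows, not all independent, cannot show a difference from all promoters for either word. The bound regions themselves lie outside these windows, and the sequence under their summits was not analysed here.

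BLIMP1 was bound within 5 kb of 6 of the 10 genes in d2 PGCLC and of 6 at day 6, and of fewer in the other cell types. Sp5, Rspo3, Fgf17, Lef1 and Axin2 were bound at both of these stages, Tbx6 at day 2 but not day 6, and Fgf8 at day 6 but not day 2. In d2 PGCLC, 6 genes had a bound region in the gene or within 1 kb of its ends (21.9% of all protein-coding genes did), 6 within 5 kb (26.0% of all) and 8 within 50 kb (53.5% of all). In d6 PGCLC the numbers were 6 (22.1% of all), 6 (26.3% of all) and 8 (53.5% of all). In E12.5 PGC they were 3 (15.9% of all), 3 (18.8% of all) and 6 (42.2% of all). In intestinal epithelium they were 2 (13.6% of all), 3 (16.1% of all) and 7 (35.9% of all). In photoreceptor precursors they were 4 (18.0% of all), 4 (20.6% of all) and 6 (41.7% of all). In plasmablasts they were 3 (44.8% of all), 5 (49.4% of all) and 8 (70.0% of all). The plasmablast count within 5 kb was thus close to the background, and the d2 and d6 PGCLC counts in that window were the farthest above theirs. The 10 genes had a median length of 6258.5 bp and all genes one of 17169 bp, so the windows of most members were shorter than those of a typical gene. Lef1 (114061 bp), Rspo3 (82762 bp) and Axin2 (32956 bp), all bound at both PGCLC stages, were longer than the all-gene median. They had 8, 3 and 3 of the 24 bound regions within 5 kb, and the counts were not adjusted for length. No test was made of the list. With the long d6 PGCLC replicate 1 left out, and replicate 2 alone defining the cell type, 7 genes had a d6 region within 5 kb, and 28.1% of all genes had a summit of that library there. With d2 PGCLC replicate 1 left out 9 genes had a d2 region within 5 kb, and 40.3% of all genes had a summit of replicate 2 there. The E12.5 count within 5 kb was 1, Sp5, when summits were merged at 100 bp (17.4% of all genes), and 5 when a summit in either library sufficed (36.7% of all). With either library the d6 PGCLC count was 10 (61.4% of all) and the intestinal count 5 (35.6% of all). Of the 93 calls of a region bound in a cell type within 50 kb of the 10 genes, 67 were kept at 100 bp and 26 were lost, and most of the lost ones are given with each gene. The share of calls lost over all bound regions was not counted, so the loss cannot be called particular to these genes.

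**Figure D1:**
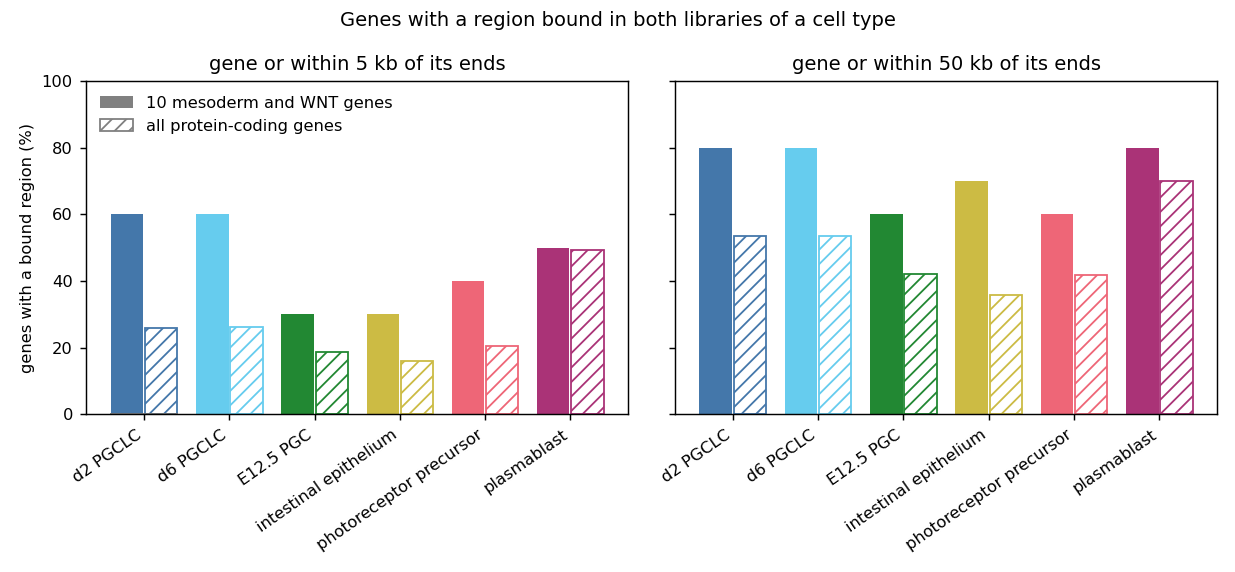
Share of genes (%, vertical axes from 0) with a region bound in both libraries of a cell type, in the gene or within 5 kb (left) or 50 kb (right) of its ends; solid bars are the 10 genes, hatched bars all 21887 protein-coding genes, and no error bars are drawn because each bar is 1 share. Within 5 kb, 6 of 10 genes were bound in d2 and in d6 PGCLC against 26.0% and 26.3% of all genes, and 5 of 10 in plasmablasts against 49.4%.

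Rspo3 encodes R-spondin 3, a secreted protein that strengthens WNT signalling (chromosome 10, 29453106 to 29535867). The d2 PGCLC replicates had 4 and 2 summits in the gene or within 5 kb, the d6 PGCLC replicates 3 and 2, the E12.5 libraries 2 (male) and 1 (female), the photoreceptor precursor replicates 1 and 1, and the intestinal and plasmablast libraries 0. Every germ-lineage library therefore had a summit, and 2 of the 6 somatic libraries did. All 3 bound regions lay at the higher-coordinate end of the gene, centred within 760 bp of it. The region at 29535078 to 29535136 was bound in d2 PGCLC and the next, at 29535644 to 29535774, in d6 and E12.5 PGC, and neither held a somatic summit. The third region, at 29536017 to 29536227 and 150 bp beyond the gene, was bound in d2 PGCLC and photoreceptor precursors. It also held a summit of d6 PGCLC replicate 2 and of the male E12.5 library. With merging at 100 bp the middle region was no longer bound in E12.5 PGC, whose summits lay at 29535644 and 29535767, nor the third in d2 PGCLC.

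Fgf8 and Fgf17 encode related FGF ligands of the streak and tail bud. Around Fgf8 (chromosome 19, 45736491 to 45742941) the 2 plasmablast libraries had 4 and 2 summits within 5 kb, d6 PGCLC replicate 1 had 2, and d2 PGCLC replicate 2, d6 PGCLC replicate 2, the female E12.5 library and photoreceptor precursor replicate 2 had 1 each, with 0 in the other 5 libraries. Only 1 region within 5 kb of Fgf8 was bound, at 45740315 to 45740500 inside the gene, in d6 PGCLC and in plasmablasts. Around Fgf17 (chromosome 14, 70636203 to 70642268) both d2 PGCLC replicates had 1 summit within 5 kb, the d6 PGCLC replicates 2 and 1, intestinal replicate 2 had 1, and the other 7 libraries had 0. The region at 70635740 to 70635865, bound in d2 and d6 PGCLC, lay 338 bp below the lower-coordinate end of Fgf17 and inside the neighbouring gene Dmtn. A further region in Dmtn, at 70623205 to 70623476 and 12727 bp from Fgf17, held a summit in all 6 germ-lineage libraries and in no somatic library. At 100 bp the bound calls of these Fgf8 and Fgf17 regions were kept, and a plasmablast call in Npm2, at 70659094 to 70659212, was lost.

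Lef1 encodes a DNA-binding partner of beta-catenin (chromosome 3, 131110297 to 131224357), and was the member with the most bound regions, 8 within 5 kb. It is also the longest of the 10 genes, 114061 bp. The d2 PGCLC replicates had 6 and 6 summits in the gene or within 5 kb, the d6 PGCLC replicates 17 and 3, the male and female E12.5 libraries 5 and 2, the intestinal replicates 3 and 4, the photoreceptor precursor replicates 2 and 3, and the plasmablast replicates 13 and 11. The counts of germ-lineage and somatic libraries overlapped. The region at 131159690 to 131159984, inside the gene and 49.5 kb from its lower-coordinate end, held a summit in all 12 libraries. Of the 193 regions in the 10 windows of 50 kb it was the only one to do so. Its summits lay between 131159690 and 131159868 in 11 libraries and at 131159984 in the male E12.5 library. With merging at 100 bp it was no longer bound in E12.5 PGC.

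Other regions of Lef1 differed between cell types. Regions at 131156706 to 131156814 (d2 PGCLC), 131157835 to 131158128 (d2 PGCLC and plasmablasts) and 131161770 to 131162037 (d2 PGCLC and intestinal epithelium) surrounded the shared region. The region at 131156706 began 412 bp downstream of the RefSeq start site at 131156294. At the lower-coordinate end, where the other 3 of the 4 start sites lie, 4 regions between 131106051 and 131111818 were bound in plasmablasts and in no other cell type. Of these, 3 also held a summit of d6 PGCLC replicate 1, and none held one of any other germ-lineage library or of another somatic cell type. The plasmablast summits nearest the start site at 131110297 lay 117 and 122 bp downstream of it. Upstream, both PGCLC stages were bound at 131084166 to 131084251 and E12.5 PGC at 131084757 to 131084854, neither region with a somatic summit. At 100 bp the calls were also lost at 131157835 in d2 PGCLC, at 131161770 in intestinal epithelium, and at 131106051 and 131109077 in plasmablasts.

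Axin2 encodes a scaffold of the beta-catenin destruction complex that WNT signalling itself induces (chromosome 11, 108917828 to 108950783). The d2 PGCLC replicates had 2 and 5 summits in the gene or within 5 kb, the d6 PGCLC replicates 9 and 1, the intestinal replicates 1 and 3, and the E12.5 PGC, photoreceptor precursor and plasmablast libraries 0. Within 50 kb the counts were 7 and 10 in d2 PGCLC, 21 and 3 in d6 PGCLC, 2 (male) and 3 (female) in PGC at E12.5, 1 and 3 in intestinal epithelium, 1 and 1 in photoreceptor precursors and 0 in both plasmablast libraries. The lists of plasmablasts, among the longest, thus held no summit around Axin2. Of the 8 bound regions within 50 kb, 5 were bound in germ-lineage cells and held no somatic summit. These were 108885643 to 108885670, 108892745 to 108892876 and, inside the gene, 108924003 to 108924157, all bound in d2 PGCLC, with 108909641 to 108909921 (d2 PGCLC and E12.5 PGC) and 108910454 to 108910545 (d6 PGCLC and E12.5 PGC). Both PGCLC stages were bound inside the gene at 108924774 to 108924901, where intestinal replicate 2 also had a summit. Below the gene 108891396 to 108891573 was bound in d2 PGCLC, d6 PGCLC and photoreceptor precursors. The intestinal replicates had summits 235 and 118 bp downstream of the start site at 108920349, in a region (108920467 to 108920584) that was bound in no other cell type and held 1 summit of d6 PGCLC replicate 1. That replicate also had the only summit inside the Axin2 window shown, 158 bp before the start. At 100 bp the d2 PGCLC calls at 108892745 and 108924003 and the E12.5 call at 108909641 were lost.

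Sp5 encodes a zinc-finger factor of the SP family and a direct WNT target (chromosome 2, 70474923 to 70477726). The d2 PGCLC replicates had 3 and 3 summits in the gene or within 5 kb, the d6 PGCLC replicates 4 and 5, the male and female E12.5 libraries 2 and 3, the intestinal replicates 1 and 2, the photoreceptor precursor replicates 1 and 1, and the plasmablast replicates 5 and 4. Sp5 and Lef1 were the members with a summit in all 12 libraries. The region at 70471961 to 70472175, 2748 bp below the gene, held a summit in 10 libraries and was bound in each cell type except photoreceptor precursors, which had none in it. Its male and female E12.5 summits both lay at 70472072. The region at 70474992 to 70475171, just inside the gene, held a summit in 9 libraries and was bound in d2 PGCLC, d6 PGCLC, E12.5 PGC and photoreceptor precursors. Its summits lay 73 and 86 bp downstream of the start site in d2 PGCLC, 210 and 175 bp in d6 PGCLC, 116 and 69 bp in E12.5 PGC, 117 bp in intestinal replicate 2, and 248 and 121 bp in photoreceptor precursors. Plasmablasts had no summit in it and were bound farther inside the gene, at 70476236 to 70476560, shared with d6 PGCLC, and at 70476771 to 70476832. A more distant region, 70457814 to 70458024, was bound in E12.5 PGC, with a summit of d6 PGCLC replicate 1 and no somatic summit. Of these Sp5 calls, that of plasmablasts at 70476236 was lost at 100 bp.

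**Figure D2:**
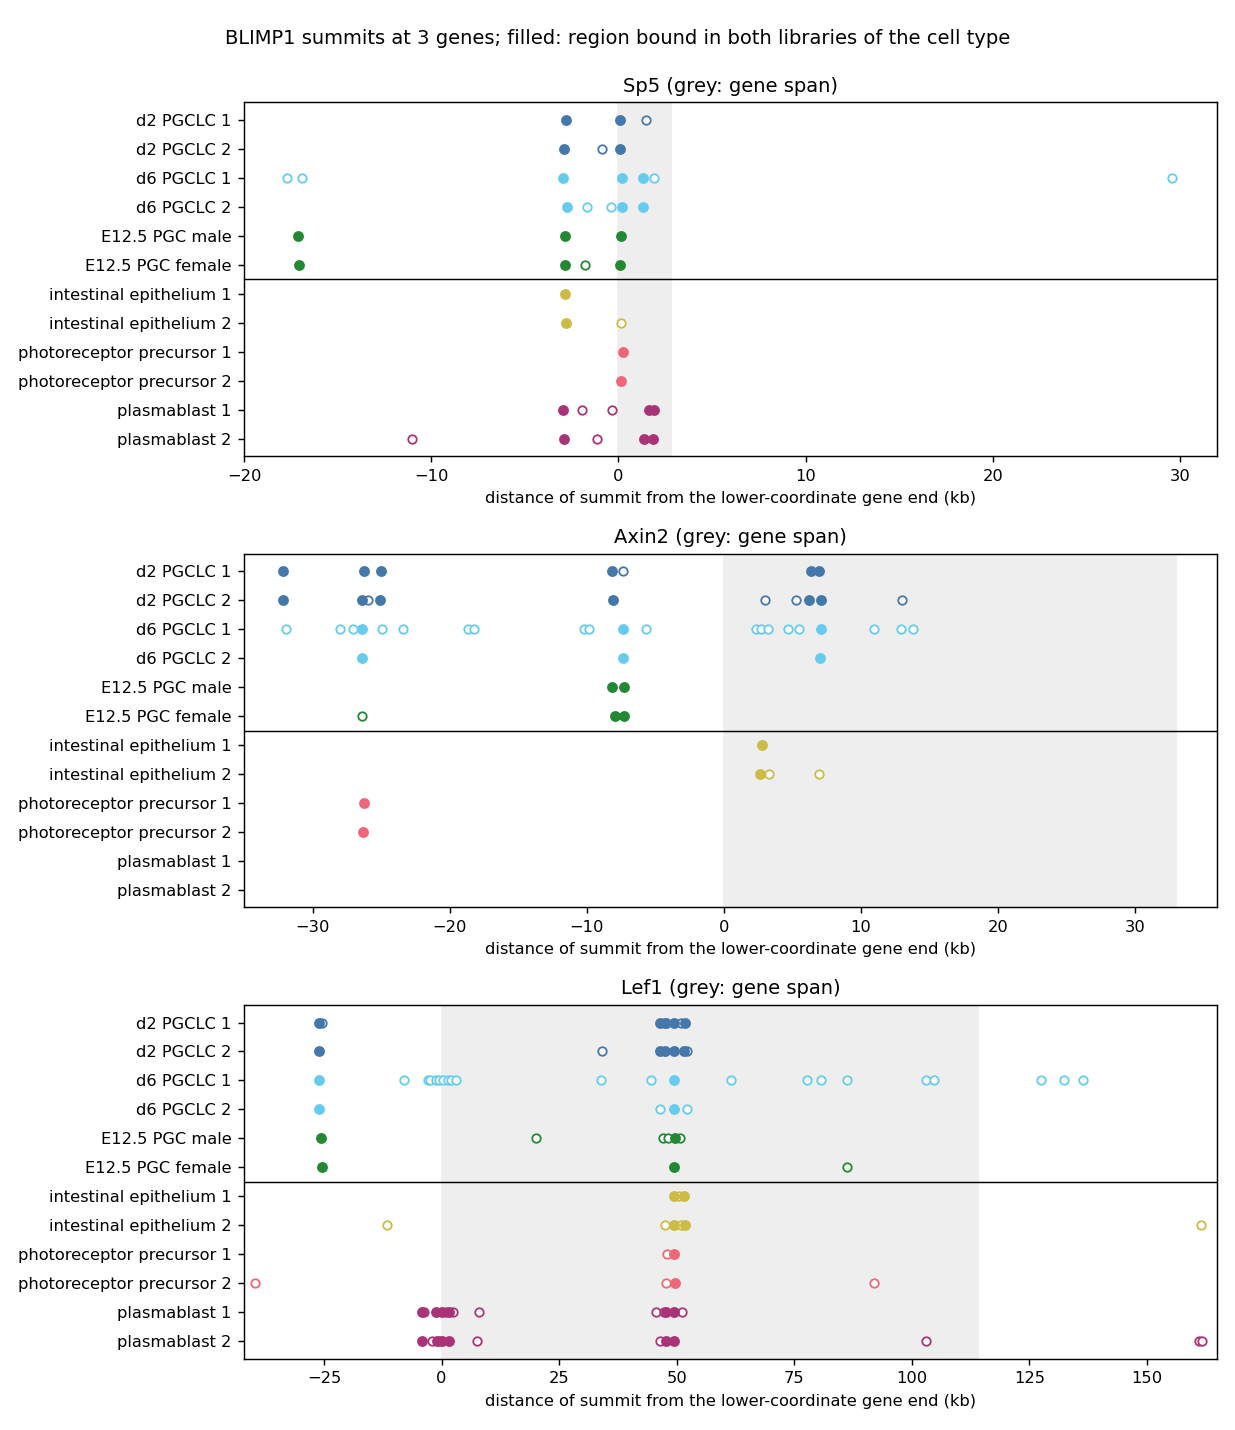
All summits of the 12 libraries (rows, germ lineage above the line) in or within 50 kb of Sp5, Axin2 and Lef1 against the distance from the lower-coordinate gene end (kb); grey is the gene span, filled points lie in regions bound in both libraries of that cell type and open points do not. The columns of points at Lef1 near 49.5 kb run through all 12 libraries, and plasmablasts have no point at Axin2.

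Among the mesodermal transcription factors, Tbx6, a T-box factor of presomitic mesoderm (chromosome 7, 126781483 to 126785548), had 1 summit within 5 kb in both d2 PGCLC replicates and in d6 PGCLC replicate 2, 2 in both plasmablast replicates and 0 in the other 7 libraries. The region upstream of Tbx6 at 126780705 to 126780774 was bound in d2 PGCLC, with summits 778 and 751 bp before the start site in d2 PGCLC and 709 bp before it in d6 PGCLC replicate 2. It held no somatic summit, and it lay 195 bp from the neighbouring gene Ypel3. The plasmablast region at 126776853 to 126776863 lay 4620 bp from Tbx6 and 100 bp from Ypel3. Both calls were kept at 100 bp, and farther out a plasmablast call at 126792267 and a d2 PGCLC call at 126794174 were lost.

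Mixl1, a homeobox factor of the primitive streak (chromosome 1, 180693043 to 180697034), had no bound region within 5 kb in any cell type, and 1 summit there in d2 PGCLC replicate 2 and in d6 PGCLC replicate 1. The nearest bound region, 180703515 to 180703756, lay 6481 bp beyond its higher-coordinate end and was bound in d2 and d6 PGCLC. It held summits in 7 libraries, among them the female E12.5 library, photoreceptor precursor replicate 2 and plasmablast replicate 1. Mixl1 was the nearest protein-coding gene to that region. At 100 bp the d2 PGCLC call was kept and the d6 PGCLC call was lost, as were a d6 PGCLC and a plasmablast call at 180725954 and a plasmablast call at 180728481.

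Eomes, a T-box factor of the streak and early endoderm (chromosome 9, 118478186 to 118486132), had 0 and 6 summits within 5 kb in the d2 PGCLC replicates, 8 and 0 in the d6 PGCLC replicates, 1 and 0 in the male and female E12.5 libraries, 1 and 0 in the intestinal replicates, 1 and 1 in photoreceptor precursors, and 2 and 4 in plasmablasts. The germ-lineage summits were therefore almost all in the longer list of each PGCLC pair, and no germ-lineage cell type was bound there. A photoreceptor precursor region at 118477128 to 118477773 lay 413 bp below the lower-coordinate end, and a plasmablast region at 118488729 to 118489212 lay 2597 bp beyond the other. Both also held summits of d2 PGCLC replicate 2 and d6 PGCLC replicate 1. The photoreceptor precursor summits lay 608 and 882 bp before the start site, and that call was lost at 100 bp while the plasmablast call was kept. The d2 PGCLC region at 118440308 to 118440398 was the only germ-bound one within 50 kb, 37788 bp from Eomes.

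Evx1, a homeobox factor of posterior mesoderm next to the Hoxa cluster (chromosome 6, 52313498 to 52318389), had 3 summits within 5 kb in d6 PGCLC replicate 1 and 0 in the other 11 libraries. Its 2 bound regions within 50 kb, 52292474 to 52292616 and 52305912 to 52306307, were both bound in plasmablasts alone. The nearer of them, 7191 bp from the gene, also held a summit of d2 PGCLC replicate 2 and of d6 PGCLC replicate 1. Both calls were lost at 100 bp, which left Evx1 with no bound region within 50 kb. All other summits in the window stood alone, 7 of d6 PGCLC replicate 1 and 1 of photoreceptor precursor replicate 1.

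**Figure D3:**
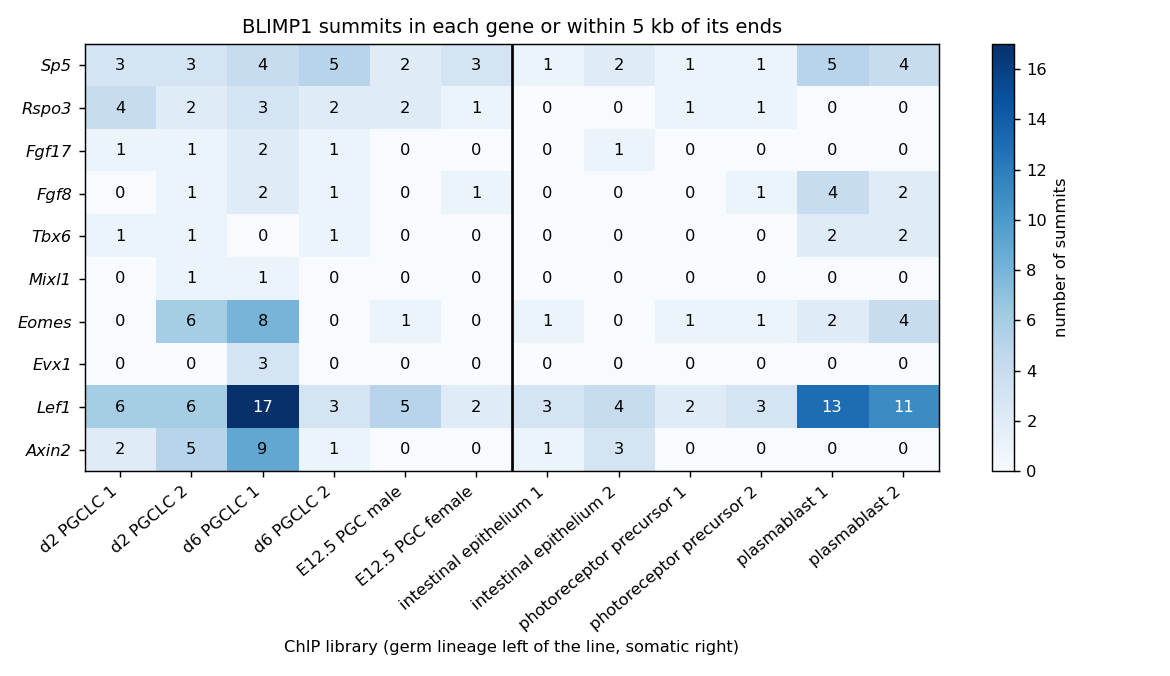
Number of summits (colour and printed value) in each gene or within 5 kb of its ends, for the 10 genes (rows) in the 12 libraries (columns, germ lineage left of the line). Sp5 and Lef1 have a summit in every library, Rspo3 in all 6 germ-lineage libraries and 2 somatic ones, and Evx1 in d6 PGCLC replicate 1 only.

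Whether germ-lineage and somatic cells differed in summits around each gene was tested on summits within 50 kb per 10000 summits of the library, averaged over the 2 libraries of a cell type, with 3 cell types against 3. An exact permutation test, two-sided, cannot give a p below 0.10 in this design, so no member could pass a threshold of 0.05. Sp5 had 1.97 ± 0.439 summits per 10000 in germ-lineage and 1.15 ± 0.317 in somatic cell types (mean ± SD, n = 3 cell types each; exact permutation p = 0.10, adjusted over the 10 genes p = 0.333). Rspo3 had 1.38 ± 0.409 against 0.410 ± 0.409 (exact permutation p = 0.10, adjusted p = 0.333, n = 3 each). For both, each germ-lineage cell type stood above each somatic one, as it did for 7.53% of all genes. The Sp5 separation was lost without d2 PGCLC replicate 1 (exact permutation p = 0.30), d6 PGCLC replicate 2 (difference 0.438 in place of 0.825, p = 0.40) or intestinal replicate 1 (p = 0.20), and that of Rspo3 without d6 PGCLC replicate 2 (p = 0.20). Single libraries also overlapped. For Sp5, d6 PGCLC replicate 1 had 0.919 and intestinal replicate 2 had 1.65, and for Rspo3, d6 PGCLC replicate 1 had 0.656 and photoreceptor precursor replicate 1 had 0.921. Fgf8 went the other way, with 0.591 ± 0.0866 in germ-lineage and 1.69 ± 0.0632 in somatic cell types (exact permutation p = 0.10, adjusted p = 0.333, n = 3 each), and each germ-lineage cell type stood below each somatic one, as for 10.5% of all genes. Here too single libraries overlapped, with 1.13 in d2 PGCLC replicate 2 and 0.825 in intestinal replicate 2. Within 5 kb the Fgf8 difference, germ lineage minus somatic, was -0.0488 in place of -1.10. Axin2 had 2.68 ± 1.22 against 0.894 ± 0.934 (exact permutation p = 0.20, adjusted p = 0.40, n = 3 each), highest in d2 PGCLC (4.03) and 0 in plasmablasts. Within 5 kb its difference was 0.202 in place of 1.79. The difference for Eomes was -0.764 within 50 kb and -0.0251 within 5 kb. With 1 library left out the 50 kb value for Eomes ran from -1.25 (without intestinal replicate 2) to -0.277 (without intestinal replicate 1), and it was -0.429 without d2 PGCLC replicate 1. That for Fgf17 was 0.662 within 50 kb and 0.180 within 5 kb. For the 7 genes other than Sp5, Rspo3 and Fgf8 the germ-lineage and somatic cell types overlapped, and the largest adjusted p was 1. The test treated the cell types as exchangeable units and was not adjusted for the number of cells per library. The germ-lineage ones are stages of 1 lineage, and d2 and d6 PGCLC were both made from epiblast-like cells, so they are not fully independent. The SDs are over cell types, and nothing in the labels ties the 2 libraries of a cell type to separate cultures or animals.

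**Figure D4:**
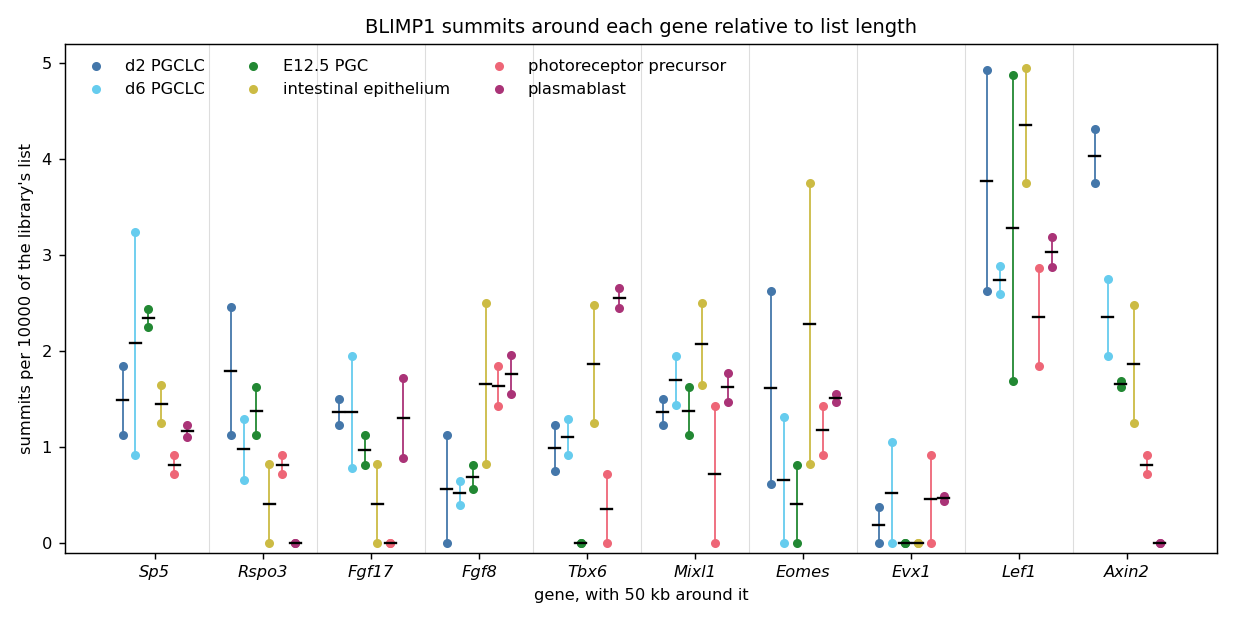
Summits within 50 kb of each gene per 10000 summits of the library's list (vertical axis), by cell type; points are the 2 libraries joined by a line, and the black bar is their mean. Lef1 runs from 1.69 to 4.95 across libraries, and Axin2 falls from 4.03 (mean of d2 PGCLC) to 0 in plasmablasts.

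Across the germ-lineage stages, and leaving somatic binding aside, 29 regions within 50 kb of the 10 genes were bound in at least 1 stage. Of these 10 were bound in d2 PGCLC alone, 3 in d6 PGCLC alone and 2 in E12.5 PGC alone. A further 6 were bound in d2 and d6, 2 in d6 and E12.5, 1 in d2 and E12.5, and 5 in all 3. Over all 17318 germ-bound regions the shares were 21.4%, 17.4%, 9.29%, 16.9%, 4.33%, 3.60% and 27.0% in the same order. Of the 7 regions bound in d2 PGCLC alone within 5 kb, 3 lay at Lef1, 2 at Rspo3, 1 at Tbx6 and 1 at Axin2. Of all 55 bound regions within 50 kb, 13 were bound in germ-lineage cells with no somatic summit, which is 23.6%, close to the 22.9% of all 41901 bound regions. Regions bound in somatic cells with no germ-lineage summit numbered 14, or 25.5%, against 42.8% of all bound regions. Of the 14, 3 each lay around Fgf17, Tbx6 and Eomes, 2 around Mixl1, 1 each around Fgf8, Evx1 and Lef1, and 0 around Sp5, Rspo3 and Axin2.

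Other genes of WNT signalling ranged from bound in no cell type to bound in all 6. Of 40 such genes, plasmablasts were bound in or within 5 kb of 21 (52.5%), photoreceptor precursors of 13 (32.5%) and intestinal epithelium of 12 (30.0%). In the germ lineage d2 PGCLC were bound at 21 (52.5%), d6 PGCLC at 22 (55.0%) and E12.5 PGC at 17 (42.5%), and the shares of all genes in the same window are those given above. Most of the 40 genes, such as Tcf7l2 (chromosome 19, 55741797 to 55933659), were longer than the all-gene median of 17169 bp. Longer genes have wider windows, and neither the shares nor the region counts were adjusted for length. No cell type was bound at 8 of the 40 (39.4% of all genes), 8 were bound in germ-lineage and in no somatic cell types (5.35% of all), and 5 in somatic and in no germ-lineage cell types (27.7% of all). In all 6 cell types 8 of the 40 were bound (5.84% of all), among them Tcf7l2, a TCF factor, with 25 regions summed over cell types, Bcl9l, a beta-catenin coactivator, with 21, and Wnt5b, a WNT ligand, with 16. Ctnnb1, which encodes beta-catenin, had 14, the corepressor gene Tle3 10 and the cyclin gene Ccnd1 9. Axin1, the homologue of Axin2, was also bound in all 6, with 7 regions, the same set of cell types as Sp5 and Lef1. Fzd10, a WNT receptor gene, was bound in d2 and d6 PGCLC like Fgf17, Fzd7 and Pygo2 in d6 PGCLC and plasmablasts like Fgf8, and Znrf3, which removes WNT receptors, in d2 PGCLC and plasmablasts like Tbx6.

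Of 42 further genes of the primitive streak and posterior mesoderm, plasmablasts were bound within 5 kb of 7 (16.7%), photoreceptor precursors of 6 (14.3%) and intestinal epithelium of 8 (19.0%). In the germ lineage d2 PGCLC were bound at 17 (40.5%), d6 PGCLC at 16 (38.1%) and E12.5 PGC at 8 (19.0%). In plasmablasts this was below the 49.4% of all genes, and in d2 and d6 PGCLC above the 26.0% and 26.3%. Within 50 kb the shares were above those of all genes in each cell type but plasmablasts (59.5% against 70.0%). They were 71.4% in d2 and 81.0% in d6 PGCLC (53.5% of all genes for each) and 59.5% in E12.5 PGC (42.2%). Photoreceptor precursors had 52.4% (41.7% of all) and intestinal epithelium 40.5% (35.9% of all). Both this list and that of WNT signalling were chosen with earlier results of these data known, and no test was made of them. Most of the 42 genes, such as Msgn1 (chromosome 12, 11208382 to 11208948), were shorter than the all-gene median of 17169 bp, and the shares were not adjusted for length. Gata4, an endoderm and heart factor, was the only one bound in all 6 cell types, with 7 regions, again summed over cell types so that a shared region counts once per cell type. Msx1, a homeobox factor, and Fgf4, an FGF ligand, were bound in each cell type but photoreceptor precursors, with 7 and 5 regions. On the same summed count Dll1, a Notch ligand of presomitic mesoderm, had 8 over 4 cell types, Foxc2 5 over 4 and Tbx3 4 over 4. Fgf3 was bound in d2 and d6 PGCLC, the same pair as Fgf17. Of the 42, 18 were bound in no cell type (39.4% of all genes), 9 in germ-lineage cells only (5.35% of all) and 4 in somatic cells only (27.7% of all).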

How the data were processed

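BLIMP1 summits were deposited by the authors as 12 lists of genome positions, 1 per library, with no height, score or p-value. The submitters' processing notes name MACS2 2.1, Bowtie 1.1.2, Trim Galore 0.3.7 and, beside these, cutadapt 1.7.1 and the build mm10. No source used here states the calling threshold or control, and an input library was not analysed here. Summits outside chromosomes 1 to 19, X and Y, 173 of 295550, were left out. At most 244 positions were identical between 2 libraries. Gene spans came from RefSeq's GRCm38.p6 gene table, which gives no strand or exons. Distances run from the nearest region edge to the gene span, and a region counted in a window it overlapped. The merging and counting were tested on simulated data. Python 3.11.15 with numpy 2.4.6 and pandas 2.3.3 was used. P-values were adjusted by Benjamini-Hochberg over the 10 genes.

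The 10 genes and both pathway lists were chosen with earlier results of these data known. Named pathway genes were, per list, the 6 with the most bound cell types within 5 kb, then most regions, then by symbol, and up to 2 per member with the same set of bound cell types. Alternatives were merging at 100 or 500 bp, either library, both libraries in any region of the window, other windows and scales, a replicate block without E12.5 PGC and each library left out.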

Additional observations from a re-analysis of the deposited data

How the results depend on the processing

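The numbers of genes with a bound region within 5 and 50 kb stayed within 1.5 times of the reported value under merging at 500 bp and under binding by both libraries in any region. Merging at 100 bp kept them within that range too, except for E12.5 PGC within 5 kb (1 gene, 17.4% of all genes), although 26 of 93 single calls were lost. With 1 library left out the other alone defined the cell type, so a number could only stay or rise. With 10 genes, numbers of 7 or 8 could not pass 1.5 times, and none of the others did. Within 5 kb the number rose from 6 to 9 in d2 PGCLC without replicate 1 and in d6 PGCLC without replicate 2. Of all genes, 40.3% and 61.1% had a summit of the library that remained. With a summit in either library the number within 5 kb moved to 10 in d6 PGCLC (61.4% of all genes), 5 in E12.5 PGC (36.7%) and 5 in intestinal epithelium (35.6%). Of the 10 differences between germ-lineage and somatic cell types, 6 had 1 direction under all 15 alternatives. Within 5 kb the direction turned for Tbx6 (0.118), Evx1 (0.0656) and Lef1 (-0.226). Evx1 also turned on summits as listed (0.667). With 1 library left out, values ran from -0.232 to 0.246 for Mixl1, from -0.247 to 0.103 for Evx1 and from -0.512 to 0.553 for Lef1, with changes of direction, and from 0.438 to 1.21 for Sp5 and from -1.25 to -0.277 for Eomes, whose directions held. The cause was not tested. A replicate block left E12.5 PGC out because its libraries have no replicate number, and it changed no value beyond leaving out that cell type. Evx1, with 0 in E12.5 PGC, turned (0.0472) and no other gene did. Over all genes the replicate differences of 2 cell types correlated between -0.284 (d2 against d6 PGCLC) and 0.0554 over 10 pairs. These values showed no pairing of libraries by replicate number, but summit counts of this kind cannot exclude it. The smallest p over all alternatives was 0.10. Without read depth, an unbound gene and too few reads cannot be told apart.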

Other observations

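Many regions in the wider windows lay at neighbouring genes, which are named here after their values were seen. Of the 55 bound regions within 50 kb, 15 lay in the member itself, 17 outside it in another protein-coding gene, 6 nearer to another gene and 17 nearest to the member. In the Mixl1 window a region inside Acbd3, a gene of Golgi organisation, at 180729399 to 180729905, held a summit in 11 libraries and was bound in each cell type except photoreceptor precursors, but with merging at 100 bp the d2 PGCLC call alone was kept. In the Fgf8 window a region in Oga, which encodes the enzyme removing O-GlcNAc from proteins, at 45783532 to 45783702, was bound in intestinal epithelium and photoreceptor precursors and lay 40591 bp from Fgf8. In the Eomes window a region in Golga4, at 118506504 to 118506688, was bound in intestinal epithelium and plasmablasts, of which the first call was lost at 100 bp. In the Tbx6 window a region at 126794174 to 126794378, 856 bp from the glycolytic gene Aldoa, was bound in d2 PGCLC, d6 PGCLC and plasmablasts, and the d2 call was lost at 100 bp.

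Of the 193 regions with any summit in these windows, 113 rested on 1 library, and in 54 of these it was d6 PGCLC replicate 1.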
